A study of Homo sapiens with 8 samples.

Results

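To describe chromatin accessibility around the integrin genes of mammary epithelial cells during TGFβ1 treatment, the accessible regions in the windows of ITGA2, ITGA3, ITGA5, ITGA6, ITGAV, ITGB1, ITGB3, ITGB4, ITGB5 and ITGB6 were followed over time. ATAC-seq, in which a transposase cuts open DNA, had been performed on wild-type (WT) MCF10A cells, an immortalised line of human mammary epithelium. Cells received solvent (BSA in PBS) or TGFβ1 at 5 ng/ml for 6, 24 or 72 h, with 2 replicates per condition and 8 samples in all. Solvent samples carry a time of 0 in the labels, but 72 h of solvent in the study's description of its set-up. A window was the gene body of GENCODE 44 (GRCh38) plus 50 kb to each side, and a region was 1 stretch of overlapping peaks from any of the 4 lists. The 10 windows held 226 of the 126658 regions genome-wide, between 14 at ITGAV and 31 at ITGB6, and no region fell in more than 1 of the windows. The genes were chosen by name and not by a cut on their accessibility, though with earlier results of these data known.

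Each condition was represented by 1 peak list called on both replicates together, so no value below has a replicate error and no difference was tested. Values are the AUC of a peak, the area under the curve of significance that the peak caller integrates over the peak, which grows with signal, depth and width. The lists do not give the number of reads behind them. A log2 ratio to solvent was scaled so that the median region within 3 kb of a transcriptional start site (TSS) was 0, because AUC at these regions was higher in every TGFβ1 list, with factors of 1.36, 1.30 and 1.19 at the successive times. A region was called higher or lower at a scaled difference of 1.5-fold. It was called gained or lost where only 1 of the lists compared held a peak, which means that the other held none above the AUC threshold of 200. Where 4 values of AUC follow one another, they are the unscaled values of the solvent, 6 h, 24 h and 72 h lists in this order, and the log2 ratio after them is scaled and refers to 72 h unless another time is given. In a population of cells, a larger share of cells with open DNA and more frequent cutting in the same cells cannot be told apart.

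Integrins are membrane receptors made of an α and a β subunit, which bind extracellular matrix outside the cell and the actin or keratin cytoskeleton inside it through talin, kindlin and plectin. ITGB1 (β1) pairs with many α subunits, among them ITGA2 (α2, collagen), ITGA3 (α3, laminin), ITGA5 (α5, fibronectin) and ITGA6 (α6, laminin). ITGB4 (β4) pairs with α6 in hemidesmosomes, the junctions that fix epithelium to its basement membrane. ITGAV (αv) pairs with ITGB3 (β3), ITGB5 (β5) and ITGB6 (β6). The pair αvβ6 of epithelial cells binds the latent form of TGFβ and can release the active cytokine.

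The 9 stretches printed here are the 201 bases centred on the strongest summit of regions on which the results turn, read from the plus strand of GRCh38, 5′ to 3′. Capitals mark matches to the motifs AP-1 (TGAGTCA or TGACTCA), E-box (CACCTG), SMAD (GTCTAGAC or GTCTGGAC), TEAD (GGAATG) and RUNX (TGTGGTT or TGCGGTT), searched on both strands. The first 4 had higher AUC at 72 h: the largest ratio among the members at chr17:75691541-75691741, the next largest at chr17:47258021-47258221, the region just upstream of the ITGA5 start at chr12:54421255-54421455, and an ITGA6 region with an AP-1 and 2 SMAD matches at chr2:172447874-172448074. The next pair came from peaks gained in all 3 TGFβ1 lists, at chr5:52985523-52985723 and chr3:124859067-124859267. The last 3 had lower AUC at 72 h, at chr17:50060903-50061103, chr17:50045274-50045474 and chr2:172455231-172455431.
ITGB4, upstream: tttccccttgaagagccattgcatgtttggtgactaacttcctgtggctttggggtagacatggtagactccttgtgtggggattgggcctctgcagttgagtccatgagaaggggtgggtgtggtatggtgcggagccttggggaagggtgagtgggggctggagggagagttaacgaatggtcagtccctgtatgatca
ITGB3, intron: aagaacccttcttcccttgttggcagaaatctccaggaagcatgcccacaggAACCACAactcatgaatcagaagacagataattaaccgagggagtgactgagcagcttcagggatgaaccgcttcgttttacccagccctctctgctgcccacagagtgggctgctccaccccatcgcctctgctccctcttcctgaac
ITGA5, upstream: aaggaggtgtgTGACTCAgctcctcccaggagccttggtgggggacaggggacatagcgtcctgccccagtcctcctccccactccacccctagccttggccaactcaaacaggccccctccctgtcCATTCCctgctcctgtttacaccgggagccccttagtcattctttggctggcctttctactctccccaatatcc
ITGA6, intron: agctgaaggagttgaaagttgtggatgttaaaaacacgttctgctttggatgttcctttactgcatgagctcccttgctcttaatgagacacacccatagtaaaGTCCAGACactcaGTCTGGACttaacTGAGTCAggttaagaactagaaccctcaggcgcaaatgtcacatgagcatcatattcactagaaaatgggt
ITGA2, upstream: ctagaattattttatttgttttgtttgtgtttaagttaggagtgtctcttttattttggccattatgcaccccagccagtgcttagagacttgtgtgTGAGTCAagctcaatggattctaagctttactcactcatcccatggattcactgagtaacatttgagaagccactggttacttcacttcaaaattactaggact
ITGB5, intron: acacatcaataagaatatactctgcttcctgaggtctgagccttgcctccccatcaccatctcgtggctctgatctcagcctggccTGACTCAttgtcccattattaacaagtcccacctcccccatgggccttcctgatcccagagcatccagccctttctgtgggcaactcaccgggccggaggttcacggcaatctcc
ITGA3, intron: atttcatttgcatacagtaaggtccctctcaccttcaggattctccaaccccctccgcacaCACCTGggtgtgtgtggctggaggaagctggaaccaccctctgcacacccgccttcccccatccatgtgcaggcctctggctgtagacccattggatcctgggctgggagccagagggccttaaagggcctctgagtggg
ITGA3, upstream: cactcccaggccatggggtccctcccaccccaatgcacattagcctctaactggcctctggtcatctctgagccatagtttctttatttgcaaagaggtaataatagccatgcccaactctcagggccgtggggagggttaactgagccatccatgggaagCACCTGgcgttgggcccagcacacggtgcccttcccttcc
ITGA6, second intron region: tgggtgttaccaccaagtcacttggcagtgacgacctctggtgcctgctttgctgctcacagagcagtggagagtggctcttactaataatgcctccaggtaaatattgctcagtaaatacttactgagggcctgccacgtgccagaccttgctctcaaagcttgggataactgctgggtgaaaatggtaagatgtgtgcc

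The lists held 86209 peaks in solvent and between 107656 and 118433 peaks after TGFβ1. All 7 epithelial markers looked up (KRT5, KRT14, KRT8, KRT18, CDH1, EPCAM and TP63) had a solvent peak within 3 kb of a TSS. Among markers of other cell types, PTPRC and PECAM1 had one, and CD3E, ALB and MYOD1 had none. The strongest start region of SMAD7, an inhibitory SMAD and TGFβ target gene, had a scaled log2 ratio of 0.17 at 6 h and 0.07 at 72 h.

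Across the 10 genes and all distances from a TSS, accessibility differed from solvent at about the frequency seen genome-wide. New peaks were less frequent, mainly at regions far from a TSS. Member regions lay within 3 kb of a TSS more often (115 of 226) than all regions (43524 of 126658), so these pooled shares compare unlike mixtures. At 6 h, 35 of 202 regions with a peak in either list were gained (17.3%, against 22.9% of all regions). At 24 h the number was 43 of 210 (20.5% against 29.8%), and at 72 h it was 41 of 208 (19.7% against 29.3%). Lost peaks were fewer, with 2, 3 and 1 cases at the successive times, or 0.990%, 1.43% and 0.481%, where all regions gave 0.551%, 1.31% and 2.43%. With lists of equal length, each cut to as many of its strongest peaks as solvent had, 14, 17 and 17 regions were gained and 6, 16 and 18 lost. Equal length by itself draws gains and losses together, so these closer counts say nothing particular about the integrin genes. Within 3 kb of a TSS, the share gained was 17.6%, 17.6% and 14.4% of member regions and 16.2%, 19.7% and 17.8% of all such regions. Farther away it was 17%, 23.5% and 25% of member regions, against 26.8%, 35.2% and 35.4%. In total 162 of the 226 regions (71.7%) had a peak in all 4 lists, compared with 62.6% of all regions.

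Among regions with a peak in both lists, 23 of 165 were at least 1.5-fold higher at 6 h (13.9%, 11.7% genome-wide), 34 of 164 at 24 h (20.7%, 20.3% genome-wide) and 40 of 166 at 72 h (24.1%, 22.9% genome-wide). Lower regions numbered 4, 5 and 7 (2.42%, 3.05% and 4.22%), next to 1.4%, 3.22% and 3.9% of all regions. The median scaled log2 ratio was 0.11, 0.13 and 0.20 for the members and 0.06, 0.12 and 0.15 for all regions. Within 3 kb of a TSS, 18 of 89 member regions were higher at 72 h (20.2%, against 13.4% of all such regions). There the shares at 6 and 24 h were 12.5% and 16.1%, against 7.49% and 12.6%. Farther away the share at 72 h was 28.6% (22 of 77), against 29.3%.

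The counts were larger around the β genes, a difference that was not tested. Around the 5 β genes, 27 of 86 shared regions were higher at 72 h (31.4%), with a median log2 ratio of 0.35. Around the 5 α genes the number was 13 of 80 (16.2%), with a median of 0.12. At 6 h the shares were 22.4% for the β genes and 5.00% for the α genes. ITGB3, ITGB4 and ITGB6 alone held 23 of the 40 regions that were higher at 72 h, and this trio was singled out after its values were seen. These windows also held many shared regions. As a share of them, ITGB3 (8 of 16) and ITGB6 (9 of 24) stood highest. ITGB4 (6 of 21) was close to ITGB1 (3 of 11) and ITGA5 (5 of 19). Of the 40 higher regions, 21 were already higher at 6 h and 29 at 24 h.

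Summed over its window, AUC was above solvent at 72 h for all 10 genes, though not for ITGA3 and ITGA6 when all regions set the scale, and at 6 h and 24 h for 9 of them, ITGA3 being the exception (-0.01 and -0.04 on the log2 scale). Genome-wide, 71.1% of 18784 protein-coding genes were above solvent at 72 h. ITGB3 had the largest ratio at each time, 0.52, 0.66 and 0.84, or 1.79-fold at 72 h, which lay at percentile 93.8 of protein-coding genes. At 72 h it was followed by ITGB6 (0.47), ITGA5 (0.40), ITGB4 (0.38), ITGA2 (0.31), ITGAV (0.28), ITGB5 (0.25), ITGB1 (0.21), ITGA6 (0.07) and ITGA3 (0.06). Without replicate lists, neighbours in this order cannot be said to differ. The median of the 10 genes was 0.17, 0.22 and 0.30 at 6, 24 and 72 h, that of all protein-coding genes 0.05, 0.10 and 0.11.

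These sums moved with how much DNA was called as peak. Covered length at 72 h was 1.06 (ITGA3) to 1.68 (ITGB3) times that in solvent. Summed AUC divided by the covered bases of the window was lower at 72 h in 9 of the 10 windows, down to a log2 ratio of -0.41 at ITGAV, and higher at ITGB3 (0.09). With the scale also set on values per covered base, 4 windows were above solvent, ITGB3 (0.16), ITGA3, ITGA5 and ITGB5. At ITGB3, 5677 bases with a mean of 2.19 per base in solvent became 9549 bases with 2.33 per base. The windows of ITGA3 and ITGA6 were above or below solvent depending on the scaling, with -0.09 for ITGA3 and -0.07 for ITGA6 at 72 h when all regions set the scale. Of the 40 higher regions, 31 stayed past 1.5-fold under that scaling. When AUC was divided by covered bases, 10 did and 34 were still above solvent, and the calls came to 2 higher and 8 lower at 6 h, 7 and 8 at 24 h, and 10 and 4 at 72 h. Without any scaling, 75 regions were higher and 0 lower at 6 h.

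The β3 gene, ITGB3 (chr17:47253827-47313743), was above solvent almost throughout its window. A positive log2 ratio was found in 16, 15 and 14 of its 16 shared regions at 6, 24 and 72 h, and 6, 8 and 8 of them reached 1.5-fold. The largest ratio belonged to an intronic region 4.29 kb past the gene start (chr17:47257666-47258386), with AUC of 217, 1002, 1275 and 1252. Its solvent value lay close to the threshold, and its ratio of 2.28 at 72 h equals 4.87-fold, or 0.46 per covered base. Stronger intronic regions were 1.84-fold higher at 21.7 kb (AUC of 1054, 2194, 2348 and 2298) and 1.66-fold at 25.6 kb. Upstream by 13.6 kb, the region chr17:47239795-47240620 had AUC of 1674, 3210.3, 3464 and 3601, a log2 ratio of 0.86. Only 10 of the 22 regions were nearest to a TSS of ITGB3 itself, the rest lying nearer to MYL4, EFCAB13 or a readthrough gene. One intronic region was lower at 72 h, with AUC of 319, 544, 431 and 239.5 (-0.66).

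At ITGB6 (chr2:160099667-160200313), encoding β6, 9 of 24 shared regions were higher at 72 h and none was lower. Of these, 6 lay upstream of the gene start. The region 38.2 kb upstream (chr2:160238012-160238765) had AUC of 508, 1390.0, 1708 and 1641, a ratio of 1.44. Closer to the gene, 9.39 kb upstream (chr2:160209507-160209901), AUC was 395, 720.1, 909.5 and 1133 (1.27), the largest value coming last. Past the end of the gene, 104 kb from its start, the region chr2:160096204-160096796 had AUC of 257, 878, 785 and 795 (1.38). The strongest start of the gene is given further on.

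The β4 gene, ITGB4 (chr17:75721328-75757818), held the largest ratio of any member region, at chr17:75691337-75691976, 29.7 kb upstream. It had AUC of 228, 1150.1, 2120.4 and 2225, an 8.24-fold difference at 72 h (log2 ratio 3.04). Per covered base the ratio was 2.18. The solvent peak was barely above threshold, and the region lay inside SAP30BP, over a TSS of that gene and not of ITGB4. A neighbouring region at chr17:75695199-75695887, also inside SAP30BP and nearest to it, had AUC of 423, 1205, 1269 and 1107 (1.14). At the 3′ end of ITGB4, the wide region chr17:75753474-75758988 had AUC of 851, 3253, 4835 and 4305 (2.09), and its peaks covered 713 bases in solvent and 4985 at 72 h. Per covered base this region was lower at 72 h (-0.64). The strongest higher region in the window lay beyond the gene over the GALK1 start (chr17:75761095-75765931), with AUC of 5605, 13379.9, 13781 and 11969 (0.85). Downstream, chr17:75774832-75775569, nearest to H3-3B, had AUC of 454, 989.7, 1404 and 1341 (1.31). Altogether 6 of 21 shared regions were higher at 72 h, and only 8 of the 29 regions had ITGB4 as the nearest protein-coding TSS.

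Around ITGB1 (chr10:32887273-33005792), the common partner of the α subunits, 3 of 11 shared regions were higher at 72 h. The intronic region chr10:32982221-32982881, 23.2 kb from the gene start, stood out with AUC of 546, 1498, 1747 and 1903 (1.55, or 2.94-fold). At ITGB5 (chr3:124761948-124901418), 1 of 14 reached 1.5-fold at 72 h, an intronic region with AUC of 438, 882, 911 and 827 (0.67). That region fell short of 1.5-fold when all regions set the scale (0.52) and was below solvent per covered base (-0.48). The median of the ITGB5 regions was 0.15, close to that of all regions.

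**Figure D1:**
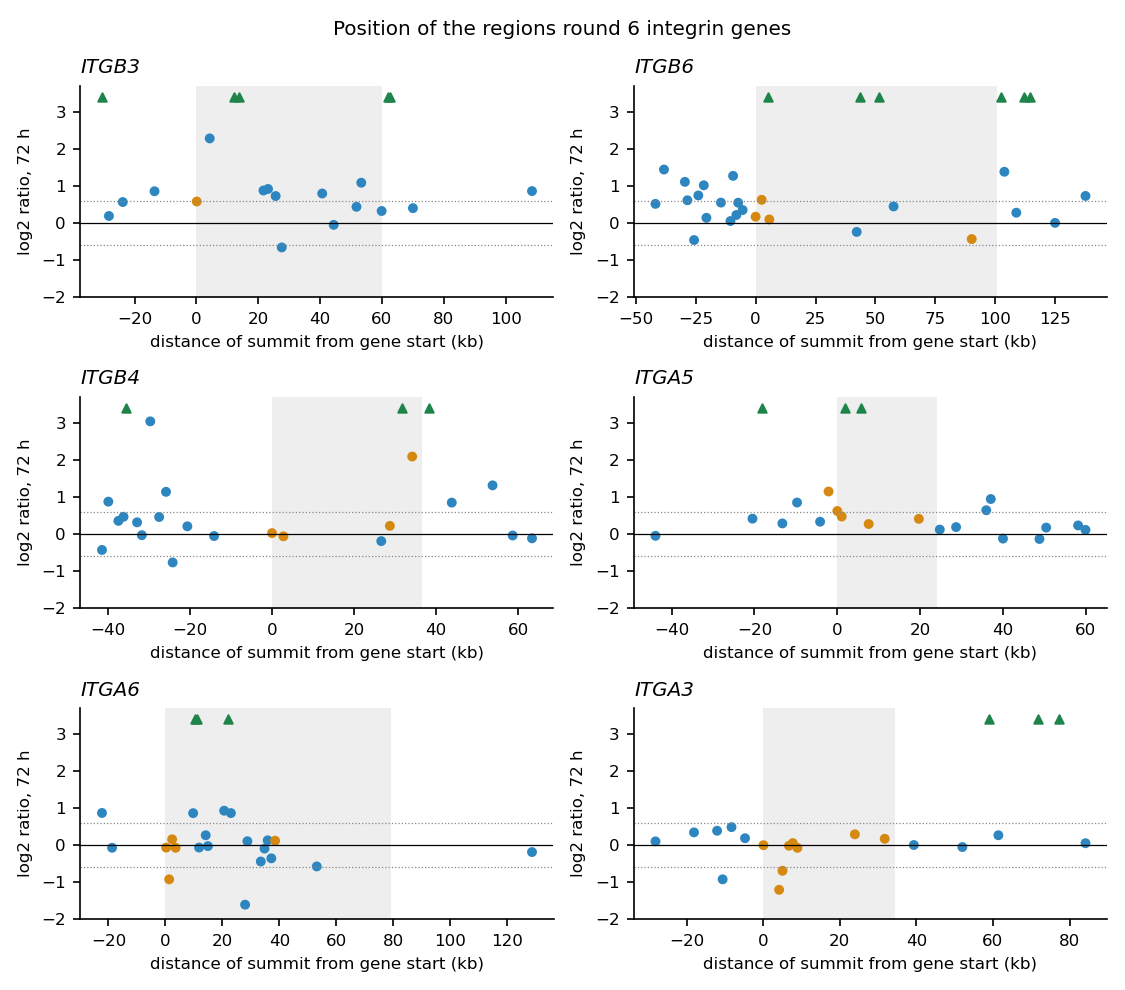
Distance of each region's summit from the gene start (kb, in the direction of transcription, horizontal axis) against its scaled log2 ratio at 72 h (vertical axis) for 6 integrin genes; grey spans are gene bodies, orange points lie within 3 kb of a TSS of the gene, dotted lines mark 1.5-fold, and green triangles mark gained regions, which have no ratio. Higher regions spread over the ITGB3 window, gather upstream of ITGB6, and flank the start of ITGB4, which lies near 0.

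Of the α genes, ITGA5 (chr12:54395261-54419266), the fibronectin receptor subunit, had the most higher regions, 5 of 19 at 72 h. They included the pair at the 5′ end of the gene. The region over the annotated start (chr12:54418699-54420170) had AUC of 1496, 2857, 2544 and 2731 (0.62), and the one centred 2.09 kb upstream (chr12:54420362-54421720), which holds an AP-1 and a TEAD match, had AUC of 797, 2408, 2577 and 2095 (1.15). Another, 9.70 kb upstream, had AUC of 2156, 4621, 4985 and 4611 (0.85). All 3 were above solvent from 6 h on. Per covered base their ratios at 72 h were 0.04, 0.42 and 0.43, each short of 1.5-fold. When all regions set the scale, the region over the annotated start stood at 0.48, also short of 1.5-fold.

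The collagen receptor gene ITGA2 (chr5:52989340-53094779) had 0 of 16 shared regions higher at 6 h and 3 of 15 at 72 h, and the pair in introns held AP-1 matches. The stronger of these, chr5:53019326-53019799, had AUC of 707, 1383, 1562 and 1653 (0.98). At ITGAV (chr2:186590010-186680901), 1 of 7 was higher, 17 kb upstream, with AUC of 775, 1378, 1501 and 1534 (0.74). Its ratio per covered base was 0.08. Here 6 of 13 regions with a peak in either list were gained at 72 h (46.2%, against 29.3% of all regions), a small count.

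The α3 and α6 genes, singled out after their values were seen, held 5 of the 7 lower regions. ITGA6 (chr2:172427354-172506459) had 4 higher and 2 lower regions of 21 at 72 h, with a median log2 ratio of -0.07. The higher ones included 2 intronic regions near each other: chr2:172447650-172448386, with AUC of 936, 1929, 1793 and 2112 (0.93), which holds the SMAD matches printed above, and chr2:172449513-172450719, with AUC of 1383, 2772, 3347 and 2985 (0.86). Farther into the gene, chr2:172454797-172455513 had AUC of 879.6, 1122, 557 and 342, a log2 ratio of -0.09 at 6 h and -1.61 at 72 h, the most negative of the members on summed AUC. Its peak covered 717 bases in solvent and 362 at 72 h, and per covered base the ratio was -0.55, short of 1.5-fold. Regions of the same gene thus lay on both sides of solvent. At ITGA3 (chr17:50055968-50090481) no region was higher at any time, and 3 of 18 were lower at 72 h. Its strongest lower region, 5.04 kb into the gene (chr17:50060673-50061377), had AUC of 2037, 1875, 1273 and 1493 (-0.56, -1.06 and -0.70 at 6, 24 and 72 h). The neighbouring region chr17:50059880-50060558 had a peak of 523 in solvent, none at 6 or 24 h, and one of 268 at 72 h (-1.21). Near the ITGA6 start, the other lower region of that gene (chr2:172428586-172428860) had a peak of 341 in solvent, 294 at 6 h, none at 24 h and 213 at 72 h (-0.93).

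On a scale set at regions near a TSS, the strongest start differed little in accessibility at 8 of the 10 genes. Ratios were larger at ITGA5 and ITGB3. Weaker starts lay on both sides of solvent. Within 3 kb of a TSS of the gene itself, 4 of 41 shared regions were higher at 72 h, 2 of them at the 5′ end of ITGA5. Another 3 were lower, at ITGA3 and ITGA6. Over all shared regions within 3 kb of any TSS, 13.4% were higher and 3.75% lower. Taking the strongest solvent region at a TSS of each gene itself, none of the 10 was called higher or lower at any time. By the same choice at 72 h, 1 of 20 adhesion partners was higher and 1 lower. Of 14 other integrin genes with a solvent peak, 2 were higher and 0 lower. The median log2 ratios of the 10 members were 0.01, 0.00 and 0.03 at the successive times. Because the scale puts the median of all regions within 3 kb of a TSS at 0, such values show only that these starts moved with that class. Deposited AUC was 6007, 7626, 7478 and 7106 at ITGA3, 5817, 7984, 7597 and 7272 at ITGAV, 5468, 7103, 7071 and 6598 at ITGB4, and 3952, 5292, 4724 and 4470.3 at ITGA6. It was 4686, 6519.9, 6086 and 5691 at ITGA2, 4706, 6399, 6138 and 5685 at ITGB1, 5661, 7958, 7748 and 6634 at ITGB5, and 907, 1162, 1094 and 1151 at ITGB6. These 8 regions had scaled ratios at 72 h between -0.07 (ITGA6) and 0.10 (ITGB6). At ITGA5 the strongest such region lay at an internal start, with 2620.3, 3676, 3831 and 3750.5 (0.27). The region over its annotated start was called higher on summed AUC but not per covered base, as given above. ITGB3 had the weakest start of these in solvent and the largest ratio, with 757, 1327, 1426 and 1343 (0.37, 0.53 and 0.58 at 6, 24 and 72 h), just short of 1.5-fold at the last time. The strongest start regions of ITGB1, ITGB5, ITGA5 and ITGB6 lay at alternative starts inside the annotated gene. At the outermost start of ITGB1, chr10:33005270-33006311 had AUC of 4113, 5182, 4951 and 4805 (-0.02). At that of ITGB6, chr2:160199769-160200416 had AUC of 782, 1212, 894 and 1044 (0.17).

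Gained regions had weak peaks, and where 3 values follow they are those of the 6, 24 and 72 h lists. Their median AUC at 72 h was 381, against 1513 for shared regions, and 24 of the 226 regions (10.6%, 14.3% of all regions) had a peak in all 3 TGFβ1 lists and none in solvent. The strongest lay 62.0 kb past the ITGB3 start, downstream of the gene and nearest to EFCAB13 (chr17:47315486-47315970), with AUC of 964, 1129.7 and 1499. In an intron of ITGB5, chr3:124859018-124859396 had AUC of 476, 1078 and 1128, the 6 h value being the lowest. ITGB6 gained chr2:160156023-160157193 in an intron, with AUC of 958, 1308 and 1077. Upstream of ITGA2 by 3.72 kb, chr5:52985255-52985753 had AUC of 984, 1098 and 949.6, and 18.2 kb upstream of ITGA5, chr12:54437223-54437700 had AUC of 909, 983 and 882. Both were near their final level at 6 h. The strongest such peak at the other members was weaker, with AUC at 72 h of 698 at ITGAV, 550.3 at ITGB1, 541 at ITGB4, 482 at ITGA6 and 396 at ITGA3. That of ITGB4 lay nearest to GALK1, and that of ITGA3 lay over a SAMD14 start.

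The 1 region lost at 72 h was intronic in ITGA2 (chr5:53030745-53031169), where AUC was 333, 567 and 391 in the earlier lists. The 7 lower regions lay at ITGA3 (3), ITGA6 (2), ITGB3 (1) and ITGB4 (1). Beyond those already given, chr17:75696995-75697479, upstream of ITGB4 and inside SAP30BP, had AUC of 1039, 1360.3, 1054 and 724 (-0.77). Upstream of ITGA3, chr17:50045179-50045561 had AUC of 481, 418, 509 and 301 (-0.93). All 7 were lower as deposited too, and 4 of them by 1.5-fold or more without the scaling. Per covered base all 7 were still below solvent, but only the region at chr17:50059880-50060558 by 1.5-fold or more (-1.14), and the upstream ITGA3 region stood at -0.05. The next smallest ratios, which did not reach 1.5-fold, were -0.46 and -0.43 at ITGB6, -0.44 and -0.36 at ITGA6, and -0.43 at ITGB4.

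**Figure D2:**
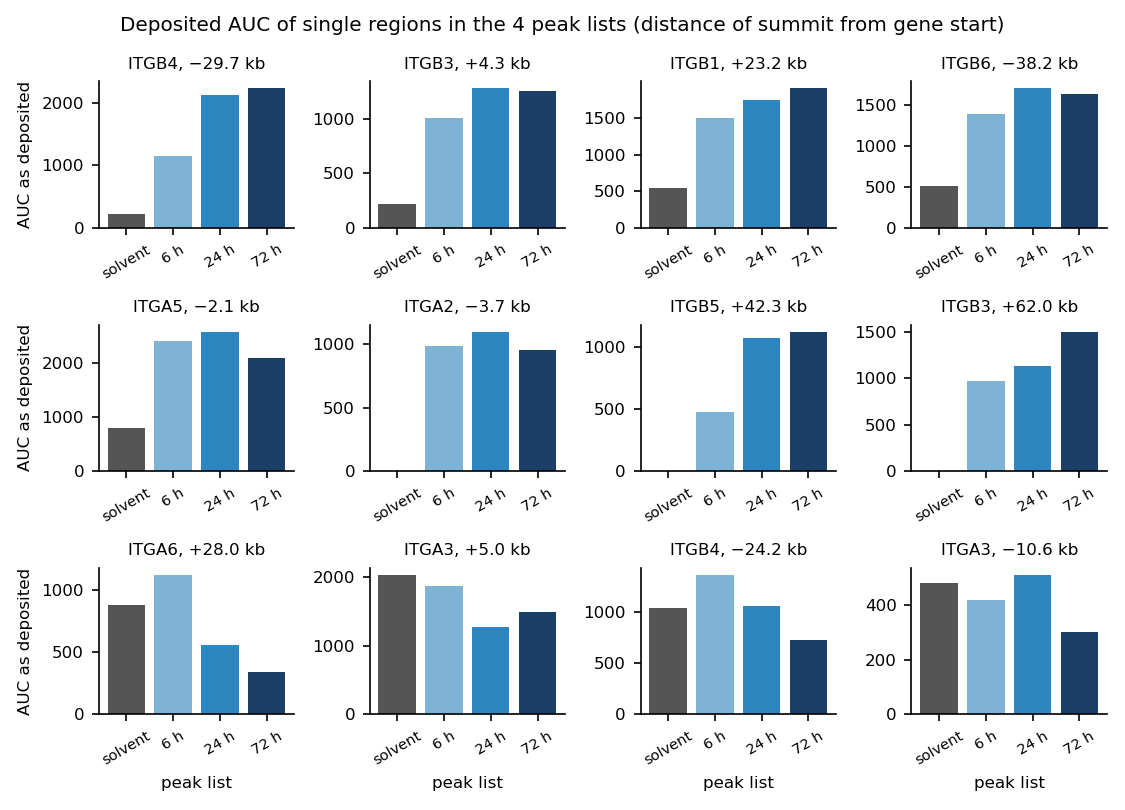
Deposited, unscaled AUC (vertical axes, each starting at 0) in the solvent, 6, 24 and 72 h lists for 12 single regions, titled by gene and distance of the summit from the gene start; an empty position means no peak. The top row and the ITGA5 region show higher AUC from 6 h on, the ITGA2, ITGB5 and 62.0 kb ITGB3 regions have no solvent peak, and the bottom row holds 4 of the 7 regions that were lower at 72 h.

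Motif letters in the 201 bases around the summits were counted next, and a match says nothing about binding. AP-1, the site of JUN and FOS factors, was found in 65 of 226 member regions (28.8%, 32.3% of all regions). Pooled motif shares again compare unlike mixtures of distances from a TSS. Within 3 kb of a TSS, AP-1 was in 26.1% of member regions and 22.3% of all such regions. Farther away the shares were 31.5% and 37.5%. ITGB5 had the highest share, 12 of 18 regions, including its gained region. Of the 40 regions higher at 72 h, 14 held AP-1 (35.0%, 46.3% of all higher regions), and of the 41 gained, 13 (31.7%, 39.9%). Among gained or higher regions farther than 3 kb from a TSS, 17 of 48 held AP-1 (35.4%, 43.1% of all such regions). Neither the ITGB4 region of largest ratio nor the strongest gained region at ITGB3 held any of the 5 motifs. Among the 7 lower regions none held AP-1 (12.1% of all lower regions), whereas 6 held the E-box, the site of SNAIL and ZEB factors (29.8% of all lower regions). The exception was the ITGA6 region of largest fall. Repeats were not masked, and with 7 regions these counts are a description.

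Over all member regions, E-box was present in 16.8% of member regions (17.9% of all), TEAD in 19.5% (15.9%) and RUNX in 7.52% (7.32%). The long SMAD motif was rare in both sets but more frequent among the members, with 5 of 226 member regions (2.21%) and 0.942% of all, 2 each at ITGA5 and ITGA6 and 1 at ITGAV.

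The other integrin genes, many of them of blood cells, were compared as a fixed list of 16. Their windows held 19 higher of 158 shared regions at 72 h (12%, against 22.9% of all regions). The median log2 ratio of these regions was -0.03, against 0.15 for all regions. The median of the 15 windows with solvent signal was 0.07, against 0.11 for all protein-coding genes. Largest was ITGA4 (α4), at 0.66, 0.50 and 0.50, and ITGA1, next to ITGA2 and sharing part of its window, had 0.44 at 72 h. The other windows lay between -0.14 (ITGAM) and 0.32 (ITGA9) at 72 h, and integrins of leukocytes were on both sides of solvent, with -0.12 for ITGAL and -0.10 for ITGB7 but 0.10 for ITGB2 and 0.17 for ITGAE. ITGA8 had no signal in solvent. Start regions of ITGA2B (1.29) and ITGA9 (0.65) were higher at 72 h, from solvent AUC of 546 and 376. That of ITGA2B (chr17:44385016-44385852) lay at an alternative start inside the gene (chr17:44372180-44389649, minus strand).

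The 20 adhesion partners link integrins to the cytoskeleton or signal from them. Of their 334 shared regions at 72 h, 76 were higher and 12 lower, 22.8% and 3.59%. Over all regions the shares were close to these, 22.9% and 3.9%. The windows of the partners had a median of 0.32, next to 0.30 for the integrin genes and 0.11 for all protein-coding genes. TNS1, a tensin of fibrillar adhesions (0.72), TLN2, a talin (0.65), and PARVA, an actin-binding parvin (0.63), were highest at 72 h, and PLEC, the plectin of hemidesmosomes, was the only one under solvent (-0.09). Of both fixed lists, the windows closest over 6, 24 and 72 h to the median of the integrin genes were those of PTK2 (focal adhesion kinase), DST and TNS4, at Euclidean distances of 0.0304, 0.0392 and 0.0659 in log2 ratio. At gene starts, COL17A1, a hemidesmosome collagen, was higher at 72 h (0.62) and the strongest TLN2 start lower (-0.73).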

How the data were processed

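The deposited data were 4 peak lists, 1 per condition, for 8 ATAC-seq samples of MCF10A cells. Per the study's methods, the authors made libraries from viable cells by the Omni-ATAC protocol, trimmed and mapped reads to GRCh38, removed duplicates and mitochondrial reads, dropped blacklisted regions, and called peaks in ATAC-seq mode on both replicates together, keeping an AUC above 200. The submitters' processing notes name Trimmomatic 0.38, Bowtie2 2.4.5, Picard, SAMtools 1.4.1 and Genrich 0.5. The signal deposited by the authors is the AUC of each peak, which was not scaled between lists. The deposited summit offset gave each peak's summit. Deposited p-values were not used. Names of the lists gave their conditions. The usable depth behind each list and values per replicate are unknown from the lists.

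Peaks sharing at least 1 bp were merged over the lists, and AUC was summed per region and list. Genes and TSSs came from GENCODE 44, and 43524 of 126658 regions lay within 3 kb of a TSS. Log2 ratios were centred on the median of those with a peak in both lists. The named regions were each gene's strongest solvent region at a start, its strongest peak gained in all 3 TGFβ1 lists, the 10 largest and 10 smallest ratios at 72 h with an AUC of at least 400 in solvent or at 72 h, and those lost at 72 h. Other regions named in the text were chosen after their values were seen. The members and lists were chosen with earlier results of these data known. Some genes looked up as checks are not reported here. Alternatives are given in the closing section. The steps were tested on simulated lists. The tools were matplotlib 3.10.9, scipy 1.17.1, pandas 2.3.3 and numpy 2.4.6, under Python 3.11.15.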

Additional observations from a re-analysis of the deposited data

How the results depend on the processing

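Peak numbers depended on list length and values on the scale. Times are 6, 24 and 72 h in that order. With lists of equal length, 7.73, 9.24 and 9.24% of member regions were gained, 3.31, 8.70 and 9.78% were lost, and 1.34% were lower at 72 h. Counting a list only where its peaks covered at least 50% of a region gave 26.5, 31.1 and 30.8% gained and 7.75, 15.0 and 16.8% higher. Without scaling, 45.5, 43.3 and 40.4% were higher (67 of 166 at 72 h), 0% lower at 6 h, and the median log2 ratio was 0.55, 0.51 and 0.45. Dividing AUC by covered bases, with the scale set on those values, left 1.21, 4.27 and 6.02% higher, medians of -0.0204, -0.0105 and 0.067, and 1, 2 and 4 of 10 windows above solvent. When all regions set the scale, the median was 0.0121 at 24 h and 0.0557 at 72 h. At 2-fold, 4.85, 6.71 and 7.83% were higher, 0% lower at 6 h and 1.20% at 72 h. A minimum AUC of 400 left 1.5% lower at 72 h (2 of 133). The causes of these differences were not tested. Windows of 10 or 100 kb, regions nearest to the member alone, and scaling at protein-coding starts kept every share inside its 95% Wilson interval and every median within 0.1. ITGB3 had the largest window ratio at 72 h in all 11 settings, between 0.16 and 1.10. No paired analysis was possible because each condition has 1 pooled list with no values per replicate, and for the same reason no replicate could be left out. The lists do not give the reads behind each value, so peaks near the threshold may be missed in some of them.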

Other observations

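Of the 162 member regions with a peak in all 4 lists, 45 had a scaled AUC that was larger at each step from solvent to 72 h (27.8%), compared with 22.8% of 79275 such regions genome-wide. A smaller value at each step was seen in 5 member regions (3.09%) and 6.73% of all. For the 7 epithelial markers, the strongest solvent region within 3 kb of any annotated TSS of the gene was taken. Such a region can lie at a minor start and need not be the main promoter. Scaled log2 ratios at 72 h were 0.96 for KRT14 (chr17:41579469-41581819), 0.26 for CDH1 (chr16:68760497-68761384), 0.15 for TP63 and 0.06 for KRT5. They were -0.16 for the region shared by KRT8 and KRT18, and -0.50 for EPCAM. The region taken for KRT14, a basal keratin, was the 1 past 1.5-fold.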
